A study of Mus musculus with 7 samples.

Results

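The genes described here are 35 transcripts of liver macrophages and related blood cells: 11 of resident Kupffer cells, 6 of monocytes, 13 shared by phagocytes and 5 of leukocytes at large. They were chosen by name as macrophage and leukocyte genes, when earlier results of these data were already known. All 35 were found among the 23366 genes of each table, 34 under the listed symbol and Spi1 under its older symbol Sfpi1, and 33 of them passed the filter on low counts. Whole livers of the inbred mouse strain C57BL/6 gave the RNA that was sequenced, with 4 libraries at 3 months of age and 3 at 21 months. The labels name no transgene, deletion or treatment at either age, so the groups differ by age alone as far as they say. The question addressed is which liver transcripts change as a mouse ages. Whether each library is from its own animal is not said in the labels, so a p-value here reflects only variation from library to library, part of which may be technical. Of the libraries, 21-month replicate 1 had low values of most of these genes and 21-month replicate 2 had high ones. Counts are given with all libraries and without each of these.

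Kupffer cells are the macrophages that live in the liver sinusoids, where they take up bacteria, complement-coated particles and old red cells from portal blood. They arise mainly before birth, depend on signalling through the CSF1 receptor and maintain themselves locally, while monocytes from the bone marrow can enter the liver and take their place. The transcription factor PU.1, encoded by Spi1, drives the genes of macrophages and other myeloid cells through short purine-rich sites in their promoters.

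The promoters of these genes were examined for the core of that purine-rich site, the letters GAGGAA on either strand (TTCCTC on the other). A start site was present for 25 of the 35 genes in the RefSeq table of build GRCm38.p6. The core lay in the 250 bases before the start in 15 of those 25 genes (60%), against 7639 of 32851 starts of all genes in the table (23.3%). Below are the 120 bases before the start, 5′ to 3′ along the gene, of 10 genes on which the comparisons turn, with the core in capitals. They are Clec4f, a marker of Kupffer cells, Aif1, and 8 genes that passed the test in at least 1 of the alternative fits described further on. Cd52 also passed in such fits but has no start in the table. A core lies in this window in the first 5, and none lies there in Mpeg1, Fcer1g, Cyba, Lyz2 and Clec4f. The share over all genes was not computed for this shorter window.
Vsig4, chrX:96293439-96293558, minus strand: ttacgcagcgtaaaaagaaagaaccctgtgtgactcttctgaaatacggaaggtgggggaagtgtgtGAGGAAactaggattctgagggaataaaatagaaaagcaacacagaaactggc
C1qb, chr4:136886201-136886320, minus strand: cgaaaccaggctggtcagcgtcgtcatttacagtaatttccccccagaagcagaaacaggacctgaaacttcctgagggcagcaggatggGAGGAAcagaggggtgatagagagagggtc
Cd53, chr3:106790150-106790269, minus strand: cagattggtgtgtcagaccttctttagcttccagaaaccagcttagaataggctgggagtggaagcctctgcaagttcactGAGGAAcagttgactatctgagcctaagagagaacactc
Laptm5, chr4:130913196-130913315, plus strand: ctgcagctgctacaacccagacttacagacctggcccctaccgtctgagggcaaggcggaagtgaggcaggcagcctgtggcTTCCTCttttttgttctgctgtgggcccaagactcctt
Aif1, chr17:35176053-35176172, minus strand: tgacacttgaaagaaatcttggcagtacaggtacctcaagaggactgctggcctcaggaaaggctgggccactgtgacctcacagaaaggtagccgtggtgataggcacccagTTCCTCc
Mpeg1, chr19:12460650-12460769, plus strand: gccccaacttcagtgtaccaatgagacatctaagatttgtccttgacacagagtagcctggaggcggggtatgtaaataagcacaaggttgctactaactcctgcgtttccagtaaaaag
Fcer1g, chr1:171234350-171234469, minus strand: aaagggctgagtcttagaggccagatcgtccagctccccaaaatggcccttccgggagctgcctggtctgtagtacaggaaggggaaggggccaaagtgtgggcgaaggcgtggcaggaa
Cyba, chr8:122432941-122433060, minus strand: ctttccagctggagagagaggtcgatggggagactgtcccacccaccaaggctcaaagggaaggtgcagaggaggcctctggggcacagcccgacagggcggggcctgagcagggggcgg
Lyz2, chr10:117282273-117282392, minus strand: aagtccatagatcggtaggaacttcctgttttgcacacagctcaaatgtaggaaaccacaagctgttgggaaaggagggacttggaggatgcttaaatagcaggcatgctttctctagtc
Clec4f, chr6:83656117-83656236, minus strand: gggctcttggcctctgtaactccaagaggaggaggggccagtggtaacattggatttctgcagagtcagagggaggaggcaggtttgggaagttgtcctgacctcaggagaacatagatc
In Aif1 the core began 7 bases before the start, in C1qb 30 and in Cd53 39. A match is a description of the letters, and binding of PU.1 was not measured.

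No Kupffer cell or macrophage transcript passed the test for a difference between the ages. None of the 33 tested members was higher and none was lower at 21 months (edgeR quasi-likelihood test, Benjamini-Hochberg over 11251 genes), while 1274 genes or 11.3% of all genes tested were called, 5.47% higher and 5.86% lower. Without 21-month replicate 1, 7 of 34 members were higher, against 6.52% of all genes, and without 21-month replicate 2 none was, as described further on. Replicate 1 was singled out by its low values of these same genes, so the count without it is not independent support for a rise. Without adjustment, 3 members had a p under 0.05 in edgeR, 2 in DESeq2 and 2 in limma voom, and none passed after adjustment in any of the 3 tools. The 3 members in edgeR were Mpeg1 and Cd53 with higher values and Aif1 with lower ones. The log2 fold change of 21 over 3 months was positive for 22 members and negative for 11, with a median of 0.10 against -0.00 over all genes. By set, that median was 0.05 for resident Kupffer cell genes, 0.29 for the 4 tested monocyte genes, 0.07 for shared phagocyte genes and 0.56 for pan-leukocyte genes. Only 1 member, Aif1, had no overlap between the ages, against 24.2% of all genes.

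**Figure D1:**
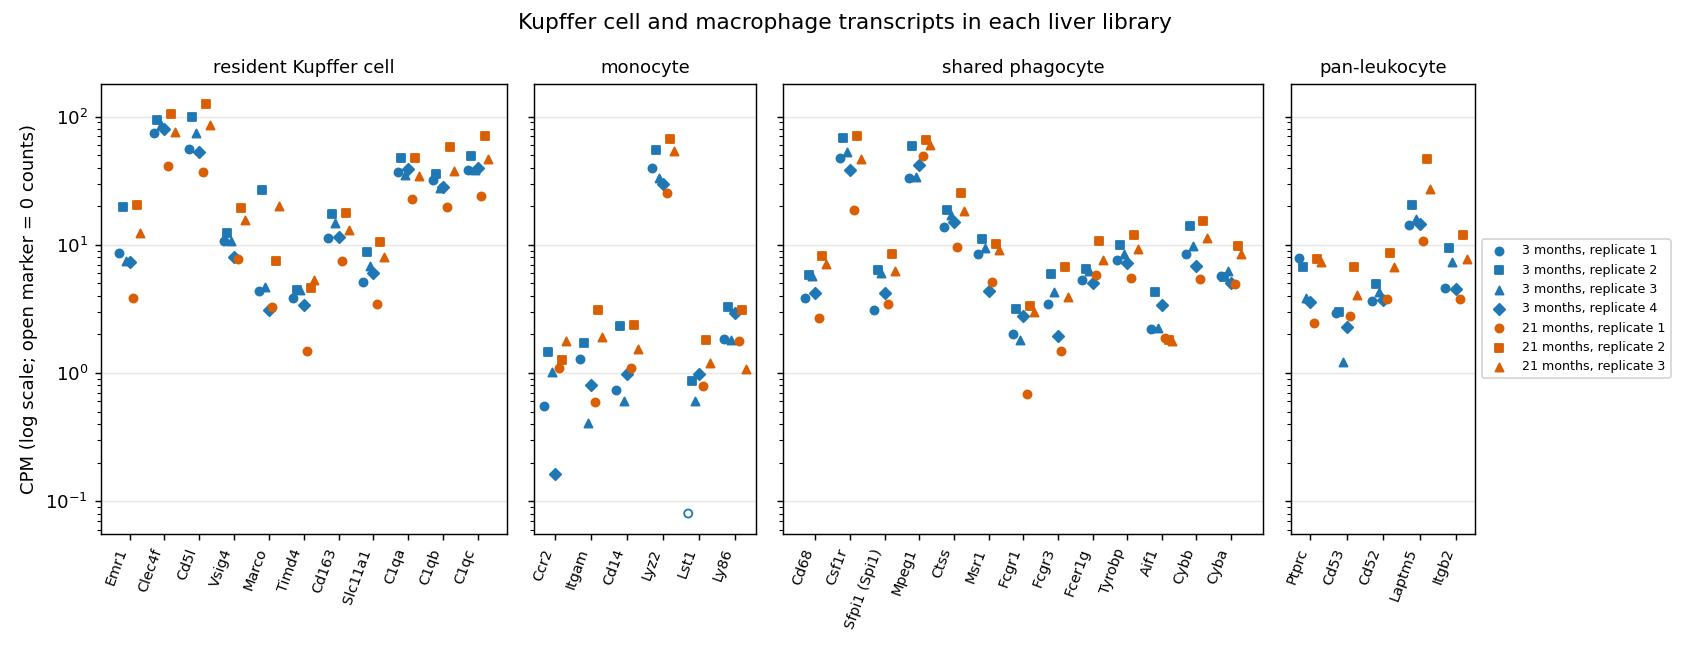
Level of each of the 35 genes in each library, in CPM (counts scaled to a common library size after TMM) on a log axis, in 4 panels by gene set; blue markers are the 4 libraries of 3 months, orange markers the 3 of 21 months, and the marker shape gives the replicate number. The orange circle (21-month replicate 1) lies lowest and the orange square (21-month replicate 2) highest for most genes, on both sides of the blue markers; the single open marker is Lst1 at 0 counts.

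What the 21-month libraries showed instead was spread among themselves. Summed over all 35 genes, the level was 504, 742, 544 and 483 CPM in 3-month replicates 1 to 4, and 340, 893 and 661 CPM in 21-month replicates 1 to 3. The lowest and the highest of the 7 sums were thus both from old livers. Replicate 1 of 21 months was the lowest of the 7 libraries for 22 of the 33 tested members (66.7%), against 19.4% of all genes, and 21-month replicate 2 was the highest for 27 (81.8%), against 19.0% of all genes. Replicate 2 exceeded replicate 1 in 32 of 33 members, the exception being Aif1, and in 5580 of 11251 genes. The median ratio of those 2 old libraries was 2.59 over the members and 0.997 over all genes. Scaling itself brings the ratio over all genes near 1. The 0.997 and the 5580 genes thus do not measure how much other genes varied. Those 2 libraries were also singled out by their low and high values of the members. Among the 3-month libraries the highest exceeded the lowest 1.75-fold at the median member and 1.32-fold at the median gene. Such a ratio cannot fall under 1, so it is not the same measure as the 2.59. Replicate 2 was the highest of the 3-month libraries in each of the 4 summed sets. The median standard error of a member's log2 fold change was 0.35, against 0.16 over all genes.

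Depth was 10458583 expected counts in 21-month replicate 1, 6882935 in replicate 2 and 8235677 in replicate 3. That is the reverse of the order of the summed members at 21 months. At 3 months the deepest library, replicate 2, had the highest sum instead. A part of depth in the spread was not tested. The libraries held 4724687 to 11143125 expected counts, of which 2689 to 8649 fell on the 35 genes, and 21-month replicate 1 was the second deepest. Rn45s, the ribosomal RNA precursor, took 22.4% of its counts, within the 18.7% to 25.6% of the others. The shortfall of the effective length is the median over genes of length minus deposited effective length. It was 35.4 bases in 21-month replicate 1, 30.9 in replicate 2 and 21.4 in replicate 3, and 34.4 to 38.8 bases at 3 months. What sets it was not tested. A count of 0 allows up to 3 counts, or 0.257 to 0.607 CPM by library, and this covers counting error only because PCR copies are not independent molecules.

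The identity of the tissue was checked against its markers. Products of hepatocytes were abundant in all libraries, with a sum over 10 genes of 74915 to 88473 CPM at 3 months and 90758 to 97862 CPM at 21 months, with Alb the largest part. Gene by gene, 21-month replicate 1 was the lowest of the 7 libraries for 6 of the 10. Markers of liver sinusoidal endothelium, the vessel lining in which Kupffer cells sit, moved over the libraries much as the macrophage genes did. All 12 of that list were detected in every library and none was at 0. Their sum was 401, 444, 400 and 265 CPM at 3 months and 201, 467 and 409 CPM at 21 months, and 21-month replicate 1 was the lowest of the 7 libraries for 10 of the 12. Stellate cell markers, also 12 of 12 detected in every library, summed to 265 to 342 CPM at 3 months and 287, 451 and 342 CPM at 21 months. The part of these cells in the spread of the macrophage genes was not tested beyond the fit with an endothelial covariate given further on. In RNA of whole tissue, fewer cells of a type and less RNA per cell cannot be told apart.

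**Figure D2:**
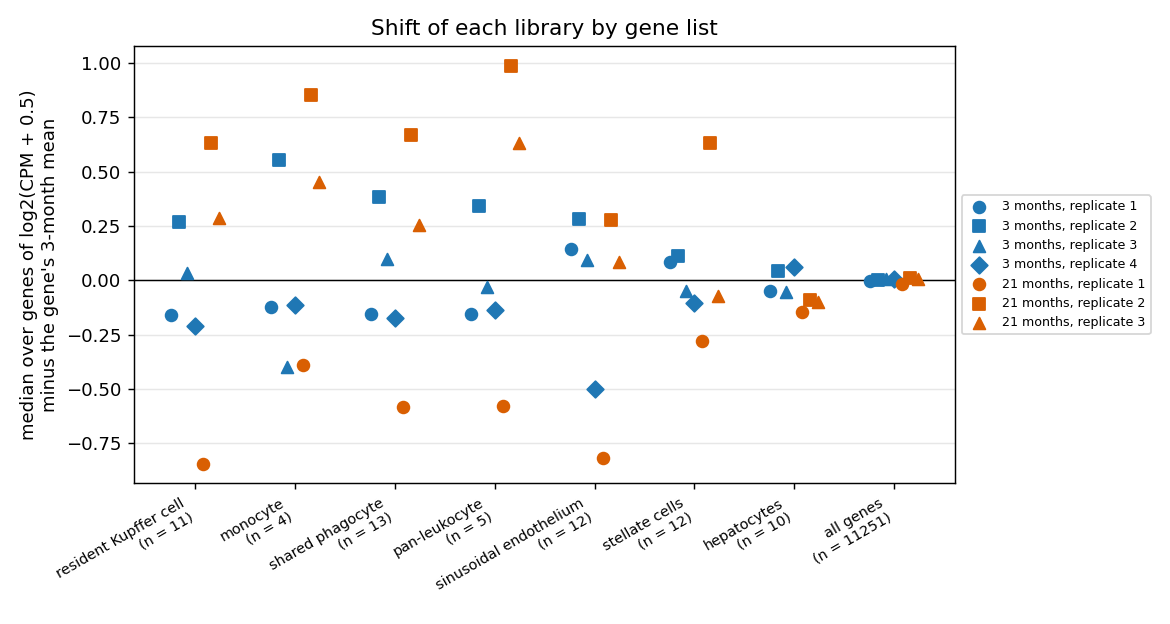
Shift of each library by gene list: the median over the list's tested genes of log2(CPM + 0.5) minus the gene's 3-month mean, with n the number of genes, blue for 3 months and orange for 21 months. In the 4 macrophage sets and in endothelium 21-month replicate 1 (orange circle) lies below zero and 21-month replicate 2 (orange square) above it, while all 7 libraries lie near zero for all genes. The scaling itself brings the medians of all genes there, so they do not show how much other genes varied.

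Among the resident Kupffer cell genes, C1qc had the highest level per length of transcript. C1qa, C1qb and C1qc encode the 3 chains of the molecule that starts the classical complement pathway and tags debris for uptake. Their mean TPM (transcript abundance scaled for length and depth) over the 7 libraries was 71.9, 67.2 and 86.9. C1qc stood at 38.5, 49.4, 38.0 and 39.4 CPM at 3 months and at 23.9, 70.0 and 46.7 CPM at 21 months. The old libraries thus lay on both sides of the young ones, and the log2 fold change was 0.16 ± 0.35 (SE, adjusted p = 0.831). C1qa had 37.0, 47.2, 34.8 and 38.6 CPM at 3 months and 22.8, 47.5 and 34.2 CPM at 21 months, a log2 fold change of -0.20 ± 0.22 (adjusted p = 0.629). C1qb had 31.9, 35.4, 27.7 and 28.2 CPM and then 19.6, 57.5 and 37.5 CPM, with 2 of the 3 old libraries above all young ones (log2 fold change 0.29 ± 0.35, adjusted p = 0.667).

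Cd5l encodes a secreted protein of tissue macrophages that binds lipids and supports their survival. It was measured at 55.5, 98.8, 74.8 and 53.2 CPM in 3-month livers and at 36.9, 125.0 and 85.9 CPM in 21-month livers. The ages overlapped, with a log2 fold change of 0.21 ± 0.47 (adjusted p = 0.837). Clec4f, a lectin that in mice marks Kupffer cells, was at 74.5, 94.3, 85.2 and 80.2 CPM in young livers. Old livers had 40.8, 105.6 and 75.4 CPM, again on both sides of the young range (log2 fold change -0.19 ± 0.30, adjusted p = 0.762). The 95% interval of that difference ran from a fold of 0.527 to one of 1.46.

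Vsig4, the complement receptor with which Kupffer cells catch bacteria from the blood, had the highest fold change of this set. Its values were 10.8, 12.3, 10.7 and 7.95 CPM at 3 months and 7.78, 19.4 and 15.7 CPM at 21 months. Replicates 2 and 3 of the old livers exceeded every young library and replicate 1 was below them all, and the log2 fold change of 0.42 ± 0.28 did not pass (adjusted p = 0.388).

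Marco, a scavenger receptor for bacteria, and Emr1, which encodes the F4/80 antigen, were the least even members of the set. Marco was at 4.38, 26.9, 4.65 and 3.08 CPM in young livers and at 3.25, 7.40 and 20.2 CPM in old ones. A single library of each age thus held several times the level of the others, replicate 2 at 3 months and replicate 3 at 21 months. Its log2 fold change of -0.10 had a standard error of 1.03, the widest of any tested member. Emr1 had 8.58, 19.8, 7.48 and 7.30 CPM and then 3.84, 20.4 and 12.2 CPM, and its log2 fold change was 0.05 ± 0.67 (adjusted p = 0.977). Both estimates moved widely with the libraries used: leaving out 1 library at a time gave log2 fold changes of -1.05 (without 21-month replicate 3) to 1.35 (without 3-month replicate 2) for Marco. For Emr1 they ran from -0.53 (without 21-month replicate 2) to 0.61 (without 3-month replicate 2), and neither gene passed the threshold in any of these fits. The remaining resident genes were Timd4, a receptor for phosphatidylserine on dying cells, Cd163, the receptor for haemoglobin-haptoglobin complexes, and Slc11a1, a metal transporter of the phagosome. Their log2 fold changes were -0.13, -0.16 and 0.05, with adjusted p from 0.760 to 0.947.

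Of the monocyte set, Lyz2 was far the most abundant at a mean of 86.4 TPM, and the other 5 members had less than a mean of 5 TPM. Lyz2 encodes lysozyme, which cuts bacterial cell walls, and Kupffer cells express it too. It was found at 40.0, 54.7, 33.0 and 29.5 CPM at 3 months and at 25.2, 67.0 and 54.2 CPM at 21 months, with overlapping ages (log2 fold change 0.28 ± 0.39, adjusted p = 0.705). Ly86, which encodes the MD-1 partner of a Toll-like receptor homologue, had 1.82, 3.26, 1.82 and 2.92 CPM in young livers and 1.77, 3.07 and 1.07 CPM in old ones. These few counts gave a log2 fold change of -0.40 ± 0.37 (adjusted p = 0.537). Cd14, a co-receptor for lipopolysaccharide, and Itgam, the CD11b integrin chain, had log2 fold changes of 0.29 and 0.61 (adjusted p = 0.745 and 0.513) at mean levels of 1.05 to 1.86 CPM.

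Ccr2, the chemokine receptor by which monocytes leave the bone marrow, did not pass the filter on low counts, and neither did Lst1, a leukocyte membrane protein. Ccr2 was at 0.547, 1.46, 1.01 and 0.162 CPM at 3 months and at 1.08, 1.26 and 1.78 CPM at 21 months. Lst1 was at 0, 0.858, 0.607 and 0.974 CPM and then at 0.788, 1.82 and 1.19 CPM. Both rest on few counts per library with overlapping ages, and with no filter their log2 fold changes of 0.63 and 0.88 had adjusted p of 0.520 and 0.381 (edgeR).

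In the shared phagocyte set, Tyrobp was the most abundant member per length at a mean of 32.9 TPM. It encodes DAP12, an adaptor through which activating receptors signal. Its values were 7.66, 9.95, 8.50 and 7.14 CPM at 3 months and 5.52, 11.9 and 9.28 CPM at 21 months, a log2 fold change of 0.05 ± 0.23 (adjusted p = 0.918). Ctss, cathepsin S, a lysosomal protease that prepares antigen for MHC class II, had 13.7, 18.7, 17.2 and 14.9 CPM and then 9.66, 25.1 and 18.2 CPM (log2 fold change 0.10 ± 0.29, adjusted p = 0.878). Csf1r, the receptor on which macrophage survival depends, had 47.6, 68.4, 53.2 and 38.0 CPM in young and 18.7, 70.4 and 46.6 CPM in old livers. Its ages overlapped like those of the other 2, with a log2 fold change of -0.22 ± 0.47 (adjusted p = 0.8288).

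Mpeg1, which encodes the pore-forming protein perforin-2 of macrophages, did not share the low value in 21-month replicate 1. It was at 33.2, 58.7, 34.0 and 41.9 CPM in young livers and at 49.4, 65.2 and 60.1 CPM in old livers. All 3 old libraries exceeded 3 of the 4 young ones, and 3-month replicate 2 lay among them. The log2 fold change was 0.45 ± 0.19 with an adjusted p of 0.170, a fold of 1.01 to 1.84 by its 95% interval. With replicate numbers as a block, Mpeg1 became the 1 member called (log2 fold change 0.50, adjusted p = 0.0315), where 4.98% of all genes were higher. It was also the 1 member called without 3-month replicate 2 (log2 fold change 0.67, adjusted p = 0.0125), where 3.36% of all genes were higher. Without 21-month replicate 1 it was not called (log2 fold change 0.55, adjusted p = 0.158).

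Aif1, the actin-bundling protein IBA1 of macrophages, was the member without overlap between the ages. Young livers had 2.19, 4.29, 2.23 and 3.41 CPM and old livers 1.87, 1.82 and 1.78 CPM. All old libraries were below all young ones, and 21-month replicates 1 and 2 had nearly equal values. The log2 fold change was -0.79 ± 0.32 with an adjusted p of 0.122, the smallest of any member, and no alternative brought it past the threshold.

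Neither the receptors for antibody nor their partner passed the test. Fcgr1 and Fcgr3, activating receptors for IgG, had log2 fold changes of -0.17 ± 0.43 and -0.06 ± 0.49 (adjusted p = 0.856 and 0.961). The signalling chain they share, Fcer1g, had one of 0.45 ± 0.22 (adjusted p = 0.203). Fcer1g was at 5.29, 6.43, 6.27 and 5.03 CPM in young and at 5.81, 10.8 and 7.61 CPM in old livers. Cyba and Cybb encode the 2 membrane subunits of the NADPH oxidase that makes superoxide in phagosomes. Cyba had 5.66, 5.58, 6.27 and 5.03 CPM and then 4.93, 9.78 and 8.44 CPM, a log2 fold change of 0.44 (adjusted p = 0.240), and Cybb one of 0.07 (adjusted p = 0.933). Cd68, a lysosomal glycoprotein, Spi1 itself and the scavenger receptor Msr1 had log2 fold changes of 0.22, 0.23 and -0.08, with adjusted p from 0.689 to 0.902.

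All 5 pan-leukocyte genes had positive fold changes. Laptm5 encodes a lysosomal membrane protein of blood cells that regulates receptor turnover. It was at 14.2, 20.6, 15.8 and 14.6 CPM in young and at 10.6, 46.4 and 27.0 CPM in old livers, so that 2 old libraries exceeded all young ones and the third fell below them. Its log2 fold change was 0.73 ± 0.50 (adjusted p = 0.429). Cd53, a tetraspanin of leukocytes, had 2.92, 3.00, 1.21 and 2.27 CPM and then 2.76, 6.70 and 4.04 CPM. Its log2 fold change of 0.85 ± 0.34 was the highest of the 33 (adjusted p = 0.126).

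Cd52, a small glycoprotein on lymphocytes and some myeloid cells, was at 3.65, 4.98, 4.25 and 3.73 CPM in young and at 3.74, 8.66 and 6.66 CPM in old livers (log2 fold change 0.56 ± 0.27, adjusted p = 0.198). Itgb2, the chain common to the CD11 integrins, had 4.56, 9.35, 7.28 and 4.54 CPM and then 3.74, 12.01 and 7.73 CPM (log2 fold change 0.20 ± 0.41, adjusted p = 0.812). Ptprc, which encodes CD45, had a log2 fold change of 0.03 (adjusted p = 0.978). Of these 5, Laptm5, Cd53 and Cd52 had both 21-month replicates 2 and 3 above every young library, while Itgb2 and Ptprc did not. In all, 11 of the 33 tested members did, against 18.4% of all genes. That measure leaves out replicate 1, the lowest library for most members, so the count is not support for a rise.

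Lymphocytes also express the pan-leukocyte genes, so their markers were read beside them. The B and plasma cell list summed to 4.22 to 5.26 CPM at 3 months and to 10.7, 44.6 and 11.7 CPM at 21 months, with 4 of its 9 genes detected in every library and none at 0 in all of them. Of the 3 genes of that list that were tested, 1 was called, where 11.3% of all genes were. It was Igj, the joining chain of secreted antibodies, higher in old livers (adjusted p = 0.0426). Igj was at 0.547, 0.257, 0 and 0 CPM in young and 4.93, 23.5 and 3.80 CPM in old livers. All its young values were at or under the level that a count of 0 allows. Igj thus passed the filter on low counts only through the old libraries. The T and NK cell list summed to 5.68 to 7.30 CPM and then to 5.52, 14.1 and 10.9 CPM, with 5 of 15 genes detected in every library and none past the test among the 2 tested. Neutrophil genes summed to 4.01 to 8.29 CPM and then to 7.49, 13.1 and 9.04 CPM. In each of these 3 lists 21-month replicate 2 held the most, as in the macrophage sets, and their part in the pan-leukocyte values was not tested.

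**Figure D3:**
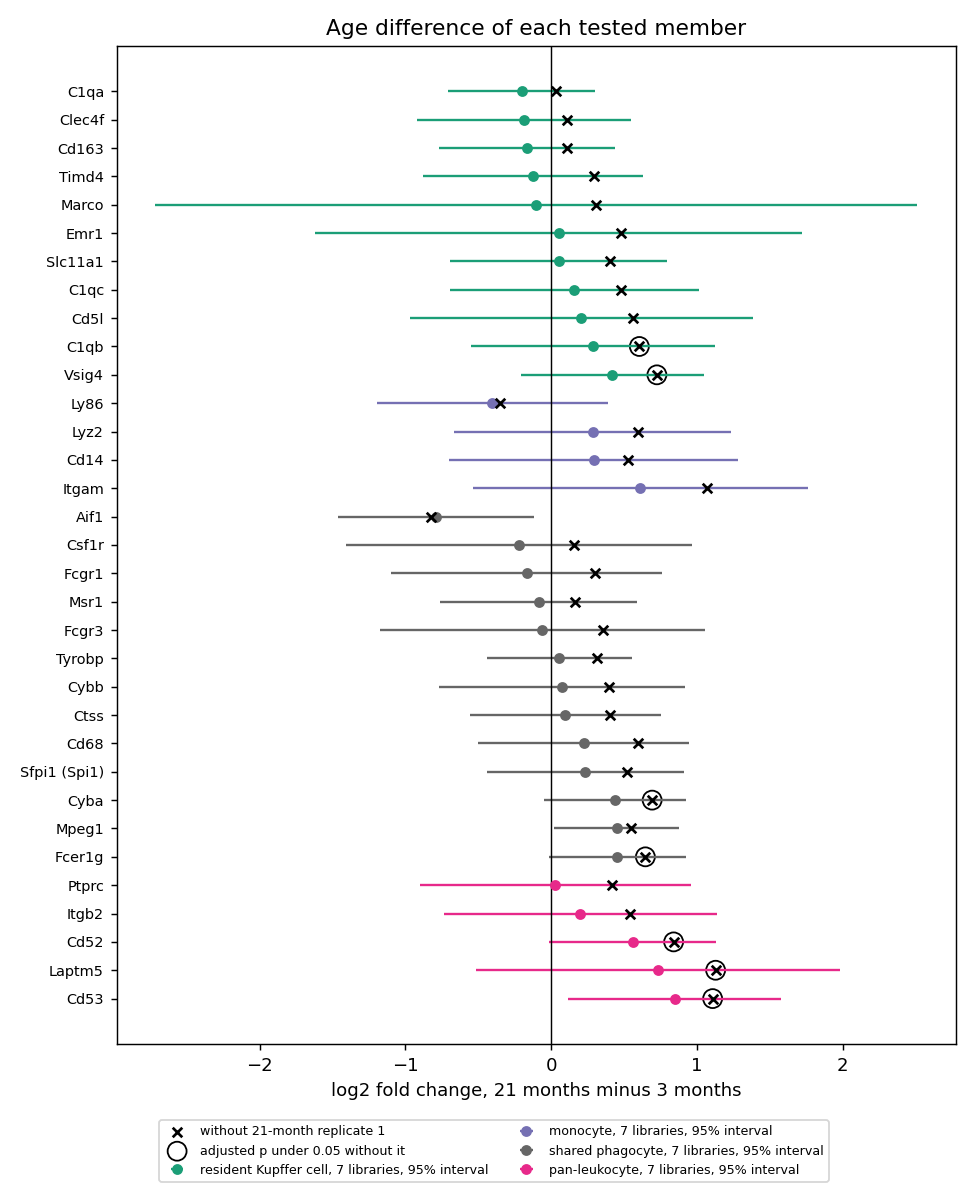
Log2 fold change of 21 over 3 months for the 33 tested genes, coloured by set, with 95% intervals from the 7 libraries; black crosses give the estimate without 21-month replicate 1, and rings mark an adjusted p under 0.05 without it. With 7 libraries the estimates run from -0.79 for Aif1 to 0.85 for Cd53; the crosses lie to the right for all genes but Aif1, and 7 are ringed.

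Because 21-month replicate 1 was the lowest library for so many members, the comparison was also made without it. The 7 members then higher at 21 months (edgeR, n = 4 and 2) were Vsig4, C1qb, Fcer1g, Cyba, Cd53, Cd52 and Laptm5, and none was lower. Their log2 fold changes were 0.73, 0.61, 0.65, 0.69, 1.11, 0.84 and 1.13, with adjusted p from 0.00969 (Vsig4) to 0.0444 (Fcer1g). The log2 fold change was positive for 32 of 34 members, with Ly86 and Aif1 negative, and its median was 0.48. Clec4f (0.11), C1qa (0.03), Cd163 (0.11) and Csf1r (0.16) had values close to 0 in the same fit. This is the comparison of 2 old libraries, and leaving out 21-month replicate 2 instead gave no member called, a median of -0.20 and 23 of 34 members negative. The library left out was picked by the values of these members, so the calls without it are not independent support for a rise.

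An alternative chosen after the data were seen added the summed level of 11 endothelial genes (the list without Fcgr2b, which macrophages also express) to the fit of all 7 libraries. Again 7 of 33 members were higher, against 8.39% of all genes, and none was lower. Those were Vsig4 (adjusted p = 0.0131), Laptm5 (0.0191), Cd53 (0.0280), Cd52 (0.0309), Lyz2 (0.0404), Fcer1g (0.0477) and Cyba (0.0496). The covariate was lowest in 21-month replicate 1 (185 CPM, against 252 to 441 CPM in the others), so this fit and the one without that library are not independent of each other. Since macrophage and endothelial levels move together over these libraries, the fit holds part of the macrophages' own level constant.

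Within each library, 12 ratios between members or summed sets were computed, which do not depend on how the library was scaled. They were chosen after the values were seen and are given without a test. The ages overlapped in the ratios of Cd5l and Emr1 to Clec4f and of Cd53 to Ptprc, whose values are not printed. Among single genes tested, 24.2% had no overlap between the ages, so a lack of overlap in a ratio picked afterwards is weak evidence. The summed resident Kupffer cell genes stood at 8.47, 9.30, 9.56 and 9.71 times the pan-leukocyte genes in young livers and at 7.33, 5.96 and 6.71 times in old ones, with no overlap. Relative to the monocyte set, which is mostly Lyz2, the resident genes stood at 6.35, 6.46, 8.27 and 7.89 times and then at 5.61, 6.17 and 5.74 times, also without overlap. The ages overlapped for the resident genes relative to the shared phagocyte set (1.95, 1.90, 1.88 and 2.00 in young, 1.49, 1.96 and 1.84 in old livers) and to the endothelial list (0.701, 0.935, 0.774 and 1.05 in young, 0.852, 1.04 and 0.866 in old livers). Laptm5 relative to Csf1r was 0.299, 0.301, 0.297 and 0.385 in young and 0.568, 0.659 and 0.579 in old livers. The ages did not overlap in it, and 21-month replicate 1 fell with the other old libraries.

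Within C1q the chains did not keep 1 ratio at 21 months. C1qb relative to C1qa was 0.862, 0.749, 0.797 and 0.731 at 3 months and 0.861, 1.21 and 1.09 at 21 months. C1qc relative to C1qa was 1.04, 1.05, 1.09 and 1.02 in young livers and 1.05, 1.47 and 1.36 in old ones, so that 21-month replicate 1 kept the young ratio and replicates 2 and 3 exceeded it in both. Mpeg1 relative to Csf1r was 0.697, 0.858, 0.639 and 1.10 in young livers and 2.64, 0.927 and 1.29 in old ones, with replicate 1 the highest. Marco relative to Clec4f was 0.286 in 3-month replicate 2 and 0.268 in 21-month replicate 3, and 0.0385 to 0.0797 in the other 5 libraries.

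**Figure D4:**
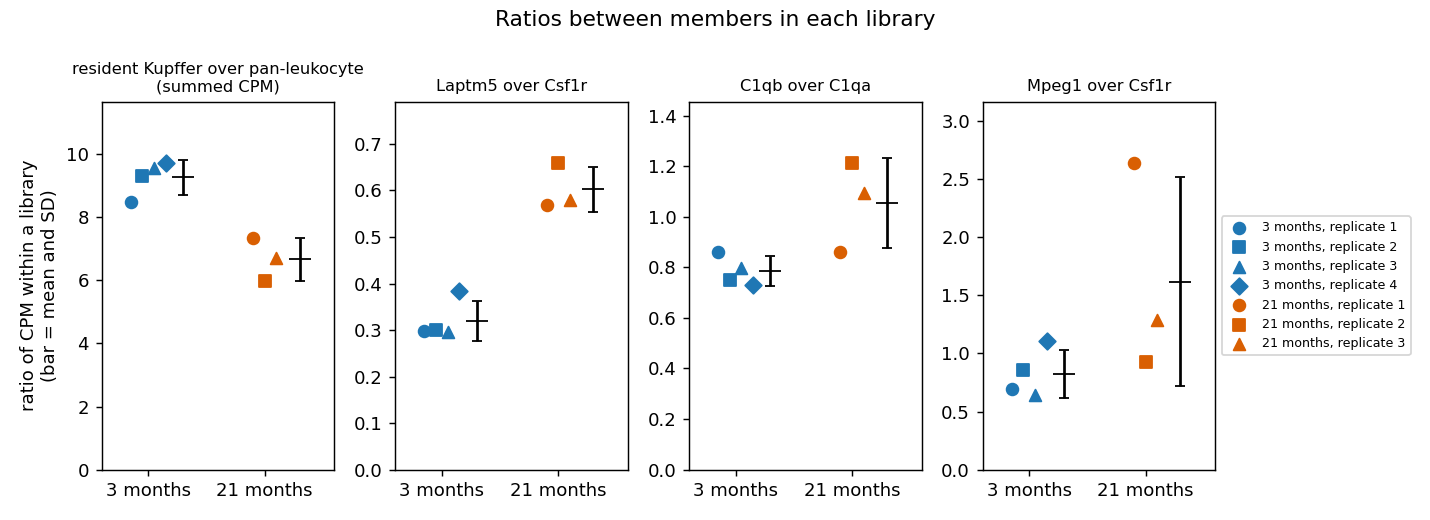
Ratios of CPM within each library for 4 pairs, with linear axes from 0; markers are libraries (blue 3 months, orange 21 months) and bars give the mean and SD of an age (n = 4 and 3). The resident to pan-leukocyte ratio and the Laptm5 to Csf1r ratio do not overlap between ages; the C1qb to C1qa and Mpeg1 to Csf1r ratios do.

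Genes that act with the members were read from lists fixed from textbook knowledge. Of all genes tested, 11.3% were called, 5.47% higher and 5.86% lower. The counts of each list, here and below, are to be read beside those shares. With so few genes per list, they are not a result about a list. Of 14 tested CSF1 receptor ligands and macrophage transcription factors, 2 were higher at 21 months and none lower: Cebpb, a factor of monocytes and of the acute phase response in hepatocytes, rose from 35.5 ± 3.5 to 58.2 ± 5.8 CPM (SD, adjusted p = 0.00128), and Id1, an inhibitor of differentiation, from 5.84 ± 0.93 to 9.41 ± 0.30 CPM (adjusted p = 0.0192). Neither ligand of the CSF1 receptor passed, with log2 fold changes of 0.38 for Csf1 and 0.49 for Il34. Hepatocytes and vessel cells express Cebpb and Id1 as well, so these values are of the whole tissue. Among 17 tested further Kupffer cell genes, none was higher and Apoe alone was lower, from 15229 to 11908 CPM (adjusted p = 0.0470), a gene made mainly by hepatocytes. Siglec1 and Folr2, more restricted to macrophages, had log2 fold changes of 0.12 and 0.01, and 21-month replicate 1 was the lowest of the 7 libraries for 12 of the 17.

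Of 9 tested genes of recruited monocytes and lipid-associated macrophages, 1 was higher and none lower, where 5.47% of all genes were higher and 5.86% lower. It was Ifitm3, an interferon-induced antiviral gene of many cell types, at 251 ± 36 CPM in young and 362 ± 28 CPM in old livers (adjusted p = 0.00818). Trem2 and Gpnmb, which mark lipid-associated macrophages, were at or under 1.96 and 1.07 CPM in every library and were not tested. Cx3cr1, the fractalkine receptor of monocytes, and Ly6c2, a surface antigen of inflammatory monocytes, were also too low to test. In both, all old libraries exceeded all young ones, where 24.2% of all tested genes had no overlap in either direction. The ages overlapped in Trem2 and Gpnmb and in the untested Ly6c1, S100a4 and Chi3l3 of the same list. Cx3cr1 was at 0.912, 1.29, 0.809 and 0.974 CPM in young and at 1.38, 3.63 and 2.02 CPM in old livers, and Ly6c2 at 0.365, 0.257, 0 and 0 CPM and then at 0.493, 2.09 and 0.595 CPM, some of it under the level that a count of 0 allows. No gene was called among 18 tested of Fc receptor and ITAM signalling, with 1 at an unadjusted p under 0.05 (Coro1a, higher, an actin regulator of leukocytes). Of the 5 tested partners of the phagocyte oxidase, Rac1, a GTPase of all cells, was higher (79.4 ± 4.2 and 97.4 ± 4.8 CPM, adjusted p = 0.0494) and none was lower, and Ncf1, the phagocyte-restricted subunit, had a log2 fold change of 0.15.

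Among 9 tested genes of lipopolysaccharide and Toll-like receptor signalling, none was higher and Ticam1, the adaptor of TLR3 and TLR4, was lower, from 29.8 ± 4.9 to 21.5 ± 1.8 CPM (adjusted p = 0.0348). Il18 was the 1 gene higher of 10 tested chemokines and cytokines, from 2.53 ± 0.85 to 4.89 ± 1.07 CPM (adjusted p = 0.0368), and none was lower. Il18 is a cytokine that Kupffer cells release after inflammasome cleavage. Of 12 tested complement receptors and partners of C1, Cd59a, which blocks the membrane attack complex, was higher (38.1 ± 1.5 and 49.98 ± 7.18 CPM, adjusted p = 0.0341). C2, the protease that C1 cleaves, was lower (120 ± 15 and 90.0 ± 8.4 CPM, adjusted p = 0.0257). Over all genes, 5.47% were higher and 5.86% lower.

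Of markers of other cells, Lyve1 was the 1 of 12 endothelial genes called, lower at 5.16 ± 2.86 CPM in young and 1.98 ± 0.67 CPM in old livers (adjusted p = 0.0359). Dcn, a matrix proteoglycan, was the 1 of 12 stellate cell genes called, higher at 61.5 ± 7.7 and 101 ± 6 CPM (adjusted p = 0.00105). Alb was higher, and Apoa1 and Fga were lower, of 10 hepatocyte genes (adjusted p = 0.0275, 0.0176 and 0.00976). Sox9 was lower of 4 tested bile duct genes (adjusted p = 0.0102), and none was called among 4 tested of dendritic cells and 5 of red cells. Beside these counts, 11.3% of all genes were called.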

How the data were processed

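Liver RNA of 7 mouse samples was sequenced after mRNA enrichment and strand-specific library preparation, per the labels' protocols. The submitters' processing notes name TopHat, RSEM, edgeR and the build mm9, with no version (not given in the sources used here). Expected counts per gene were estimated by the authors and deposited, per the file headers, and 86.5% of them were whole numbers. TPM, scaled for length and depth, were deposited by the authors beside them. Gene lengths were used only for the shortfall of effective length.

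Expected counts were rounded. Genes were kept by filterByExpr (minimum count 10, total 15), scaled by TMM and tested for age with edgeR's robust quasi-likelihood test, with Benjamini-Hochberg adjustment over 11251 genes and a threshold of 0.05. Adjusted p-values come from that test. The log2 fold change is 21 minus 3 months, and its standard error is its size over the root of F. Groups came from the labels (n = 4 and 3). Depth was 4724687 to 11143125 expected counts per library. R 4.3.3, edgeR 4.0.16, limma 3.58.1, DESeq2 1.42.0, Python 3.11.15 and matplotlib 3.10.9 were used, and the test was tried on simulated data.

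The members and the lists were chosen with earlier results of these data known. The rule for named genes took, library by library, the 3 members of highest mean TPM in each set and any member past the threshold, and up to 3 called genes of each list. Clec4f, Vsig4, C1qb, Marco, Emr1, Mpeg1, Aif1, Cd53, Fcer1g, Cyba, Ccr2 and the uncalled list genes named were added after their values were seen. Pirb and Tf were matched as Lilrb3 and Trf, and Trac and Ly6g were not used here. Near-identical genes can share estimated counts, which makes Fcgr3, with its relatives, uncertain. Promoters come from the RefSeq table of GRCm38.p6, which was not used for any other coordinate.

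The alternatives were other scalings, filters and tests, TPM, a replicate block, covariates and leaving out each library. The labels number the replicates of both ages but do not say that a number marks a pair or a batch. The deviations of same-numbered libraries correlated at 0.110, 0.176 and 0.108 for replicates 1, 2 and 3. The 3-month replicate 4, which has no partner, reached 0.157 with 21-month replicate 1, so these values do not settle a pairing. The counts in the main text come from the fit with age alone, and the replicate block is an alternative.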

Additional observations from a re-analysis of the deposited data

Results flagged for a closer look

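Among 35 members examined at 3 months, 3 had 1 library whose gap to the nearest other was a large share of the range of the 4 libraries. In each of them it was replicate 2, at the top of the range. The gap made up 0.934 of the range for Marco, 0.898 for Emr1 and 0.876 for C1qc, above the critical value of Dixon's test for 4 libraries. Chance gives such a mark in about 1 of 20 groups. Replicate 2 was also the highest of the 3-month libraries in the sum of each of the 4 gene sets, and of the endothelial markers. Groups of 3 libraries, as at 21 months, were not examined this way.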

How the results depend on the processing

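The count of members higher at 21 months was 0 with 7 libraries under every scaling, filter and test tried, and with TPM. It was 1 with the replicate block (Mpeg1, the 1 member call that the block changed), 7 with the endothelial covariate, and 0 to 7 on leaving out 1 library at a time. No member was lower in any fit. Of all genes, 1274 were called, 332 with the effective length covariate, 2055 with the endothelial covariate, 1075 with the replicate block, and 580 to 1642 without 1 library. TPM put the median of all genes at 0.12 and that of the members at 0.19, and split the calls into 799 higher and 276 lower, against 615 and 659. Of the 33 members, 31 were tested without 3-month replicate 2 and 25 at a mean of at least 5 CPM. The cause of these changes was not tested.

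Since no member passed in the fit of 7 libraries with age alone, every turn of sign below is of a difference that had not passed there. C1qb, called without 21-month replicate 1, turned without 21-month replicate 2. The log2 fold change became 0.076 for Marco and 0.015 for Fcgr3 in DESeq2, and 0.41 and 0.051 with TPM. In limma voom it was -0.27 for Emr1, -0.16 for Slc11a1, -0.040 for Ctss, -0.060 for Tyrobp, -0.092 for Cybb and -0.16 for Ptprc. With the replicate block it was -0.060 for Emr1, -0.044 for Cybb and -0.14 for Ptprc. With the effective length covariate it was -0.067 for Emr1, -0.0063 for Cd5l, -0.25 for Slc11a1, -0.044 for C1qc, 0.018 for Ly86, -0.23 for Cd68, -0.14 for Ctss, -0.12 for Tyrobp, -0.10 for Cybb and -0.43 for Ptprc. With the endothelial covariate it was 0.16 for Marco, 0.061 for Msr1 and 0.091 for Fcgr3. Without 1 library it ran from -0.53 to 0.61 for Emr1, -0.28 to 0.40 for Slc11a1, -1.05 to 1.35 for Marco, -0.45 to 0.11 for Cd163, -0.29 to 0.17 for Msr1, -0.50 to 0.30 for Fcgr1, -0.60 to 0.36 for Fcgr3, -0.20 to 0.42 for Ptprc, -0.19 to 0.31 for Tyrobp, -0.26 to 0.40 for Cybb, -0.51 to 0.11 for Clec4f, -0.46 to 0.29 for Timd4, -0.47 to 0.032 for C1qa, -0.67 to 0.16 for Csf1r, -0.20 to 0.56 for Cd5l, -0.11 to 0.61 for C1qb, -0.23 to 0.48 for C1qc, -0.011 to 0.53 for Cd14, -0.048 to 0.60 for Cd68, -0.069 to 0.52 for Spi1 (Sfpi1), -0.22 to 0.40 for Ctss and -0.22 to 0.54 for Itgb2.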
